A study of Homo sapiens with 12 samples.

Results

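The 8 genes described here, SPRR1A, SPRR1B, SPRR2A, SPRR2D, SPRR3, IVL, TGM1 and SCEL, encode building blocks and the cross-linking enzyme of the cornified envelope. They were taken by name from the 58735 genes of the table, and they had been proposed with results of these data known. They were selected on their FPKM in these libraries, and the contrast used was not recorded, so every value of theirs is given as a description, without a test. RNA came from NCM460, a line labelled as normal human colonic epithelium, in 12 libraries with 3 in each of 4 groups. The groups were cells in medium, cells given TNF-α, cells given TNF-α together with 5-OH-TMT, and cells with HTRA2 knocked down and given TNF-α. 5-OH-TMT, which the labels call bufotenidine, is the trimethylated quaternary ammonium form of serotonin. HTRA2 is a serine protease of the mitochondrial intermembrane space, and it was silenced with siRNA. The labels name no control siRNA for the TNF-α libraries and do not say whether the knockdown libraries came from separate siRNAs or separate cultures. The spread between libraries of a group may therefore be technical.

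The cornified envelope is the protein shell that keratinocytes of stratified squamous epithelia build beneath the plasma membrane as they die. Involucrin and the plakins are laid down early as a scaffold, transglutaminases join them through glutamine and lysine side chains, and loricrin and the small proline-rich (SPRR) proteins reinforce them later. Most of the structural genes sit side by side on chromosome 1 in the epidermal differentiation complex. The colon has no cornified layer, although SPRR2A is known from the intestine as a gene that bacteria and cytokines raise.

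HTRA2 checked the knockdown label. Its level was 14.0, 17.2 and 13.3 FPKM (fragments per kilobase of gene model scaled to library depth) in the medium libraries, 15.4, 14.0 and 14.2 under TNF-α, 15.4, 15.5 and 14.8 under 5-OH-TMT, and 7.44, 7.18 and 7.22 in the knockdown. Every knockdown library lay below every other library, and HTRA2 fell by 0.98 on the log2 scale against TNF-α (SE 0.087, limma adjusted p = 2.77e-05). The reads on genes numbered between 31008429 and 37624399 per library. Of 15 markers of colonic epithelium, 5 had a mean of at least 1 FPKM over all libraries. KRT8 and KRT18 stood at 1115 and 1142 FPKM, EPCAM and CDH1 at 66.6 and 66.8, and KRT19 at 2.64. In every library 8 had at most 3 reads, among them CDX2 and CA1 at 0 and VIL1, CDX1, CDH17 and FABP1. MUC2 and LGALS4 had means of 0.0301 and 0.0698 FPKM. Of 15 markers of stratified squamous epithelium, 14 had a mean of at least 1 FPKM, among them the basal keratin KRT5 at 139 FPKM. Of the defining colonic transcription factors, CDX2 thus had 0 reads and CDX1 at most 1 read per library, in cells that carried squamous keratins. Mitochondrial transcripts made up 2.95% of the reads of knockdown library 2 and 3.69% to 4.68% elsewhere.

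The promoters are shown because most of these genes neighbour each other and because the SPRR genes were high together in the knockdown. Promoters of 6 of the 8 genes were taken from RefSeq (GRCh38.p14), and those of TGM1 and SPRR2D were not used here. The bases before the start are printed 5′ to 3′ on the strand of the gene, up to 250 of them and fewer where the gene model of the table starts earlier. The regions are chr1:152908296-152908544 for IVL, chr1:152983831-152984080 for SPRR1A, chr1:153001499-153001746 for SPRR3, chr1:153030953-153031201 for SPRR1B and chr13:77535456-77535673 for SCEL, all on the plus strand, and chr1:153057538-153057762 for SPRR2A on the minus strand. Capitals mark matches on either strand to AP-1 (TGANTCA), the TATA box (TATAAA), the octamer (ATTTGCAT) or an ETS core (GGAAGT).
IVL: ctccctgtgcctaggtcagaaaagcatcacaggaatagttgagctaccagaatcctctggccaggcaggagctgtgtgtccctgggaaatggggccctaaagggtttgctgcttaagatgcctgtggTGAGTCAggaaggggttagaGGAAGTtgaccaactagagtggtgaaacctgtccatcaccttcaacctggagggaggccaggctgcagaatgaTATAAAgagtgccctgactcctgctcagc
SPRR1A: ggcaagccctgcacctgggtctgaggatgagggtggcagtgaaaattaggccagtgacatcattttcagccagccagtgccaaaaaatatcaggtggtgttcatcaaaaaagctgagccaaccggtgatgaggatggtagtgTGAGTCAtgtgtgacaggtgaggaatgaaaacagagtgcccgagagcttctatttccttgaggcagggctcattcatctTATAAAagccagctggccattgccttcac
SPRR3: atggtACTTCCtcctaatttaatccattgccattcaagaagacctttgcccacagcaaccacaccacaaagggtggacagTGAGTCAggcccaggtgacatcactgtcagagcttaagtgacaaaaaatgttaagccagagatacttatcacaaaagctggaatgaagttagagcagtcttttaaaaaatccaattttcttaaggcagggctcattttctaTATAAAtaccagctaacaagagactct
SPRR1B: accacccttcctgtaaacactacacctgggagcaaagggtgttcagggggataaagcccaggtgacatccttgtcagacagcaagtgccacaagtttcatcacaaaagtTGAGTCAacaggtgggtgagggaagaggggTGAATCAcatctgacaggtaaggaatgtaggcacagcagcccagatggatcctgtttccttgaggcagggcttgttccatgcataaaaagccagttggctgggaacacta
SPRR2A: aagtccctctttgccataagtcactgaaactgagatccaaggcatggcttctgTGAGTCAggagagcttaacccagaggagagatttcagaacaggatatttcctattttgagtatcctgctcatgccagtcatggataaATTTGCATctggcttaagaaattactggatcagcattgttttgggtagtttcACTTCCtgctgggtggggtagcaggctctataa
SCEL: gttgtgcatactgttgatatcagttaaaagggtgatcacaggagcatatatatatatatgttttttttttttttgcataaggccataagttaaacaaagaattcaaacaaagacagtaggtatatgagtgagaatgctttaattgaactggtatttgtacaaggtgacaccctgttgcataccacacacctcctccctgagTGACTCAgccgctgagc
All 6 windows held the AP-1 letters, which 6.57% of 35116 promoters held in the 250 bases before the start. In SPRR1A they lay 108 bases before the RefSeq start and in SCEL 49 bases before it, and SPRR1B held a second match, 141 and 111 bases before the start. The TATA box letters were in 4 of the 6 windows (10.7% of all promoters), and the ETS letters were in 3 (19.5% of all). The TATA box of SPRR2A runs past the last printed base and is therefore not in capitals. The octamer was in SPRR2A alone of the 6 (1.63% of all). An NF-κB motif (1.73% of all) and an interferon-stimulated response element (3.02% of all) matched none of the 6 windows, which says only that these letters are not there. The matches are letters in a window and were not measured as binding sites. SPRR3, with no reads in any library, and IVL, whose knockdown and TNF-α libraries overlapped, held the AP-1 and TATA box letters too. A link of the letters to the levels was not tested. The ETS and the other motifs did not share bases with each other in the printed windows.

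SPRR1A, a cross-bridging precursor induced early in squamous differentiation, was almost absent outside the knockdown. Its position is chromosome 1, 152985231 to 152985500, plus strand, and the gene model of the table covers only 270 bases of it, downstream of the RefSeq start. It had 2, 2 and 1 reads in the medium libraries, 4, 8 and 1 under TNF-α, 0, 1 and 1 under 5-OH-TMT, and 34, 50 and 47 in the knockdown. Its level was 0.214, 0.231 and 0.113 FPKM in medium, 0.404, 0.950 and 0.0993 under TNF-α, 0, 0.104 and 0.103 under 5-OH-TMT, and 3.49, 5.13 and 4.78 in the knockdown. Every knockdown library stood above all 9 other libraries, and the medium and TNF-α libraries overlapped. How many of all genes lay above all 9 was not counted, here and for the members below. The knockdown held 9.76 times the reads of TNF-α per unit of depth (95% exact interval 5.51 to 18.8). That interval covers counting error only and takes each read as independent. On the scale of log2(FPKM + 0.1) the fitted difference was 3.25 (SE 0.498, 95% interval 2.17 to 4.34).

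SPRR1B, its close relative, had the highest mean per length of the members in every group, although SCEL was above it in medium libraries 2 and 3 and SPRR1A in knockdown library 2. Its position is chromosome 1, 153031202 to 153032900, plus strand. Its level was 1.72, 0.704 and 1.68 FPKM in medium, 1.41, 2.02 and 2.03 under TNF-α, 2.11, 2.77 and 1.52 under 5-OH-TMT, and 5.99, 4.25 and 7.30 in the knockdown. The knockdown libraries were again above all 9 others, and the other 3 groups overlapped. The mean was 5.85 ± 1.53 FPKM in the knockdown and 1.82 ± 0.357 with TNF-α (SD, n = 3), a ratio of 3.21. The fitted log2 difference was 1.62 (SE 0.319, 95% interval 0.92 to 2.31). Even so, 32.7% of the genes tested had a higher mean FPKM than SPRR1B in the knockdown.

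SPRR2A, a late precursor, is at 153056113 to 153057537 of chromosome 1, minus strand. It had 2, 3 and 2 reads in medium, 14, 2 and 12 under TNF-α, 8, 10 and 12 under 5-OH-TMT, and 63, 84 and 54 in the knockdown. Its level was 0.0814, 0.132 and 0.0864 FPKM in medium, 0.538, 0.0905 and 0.454 under TNF-α, 0.321, 0.397 and 0.470 under 5-OH-TMT, and 2.46, 3.29 and 2.09 in the knockdown. Here too the knockdown was above all 9 other libraries. TNF-α library 2 lay among the medium libraries and the other two TNF-α libraries lay above them. The knockdown mean was 7.24 times the TNF-α mean, with a fitted log2 difference of 2.71 (SE 0.381, 95% interval 1.88 to 3.55).

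SPRR2D, its neighbour on the minus strand from 153039725 to 153041931, had 4, 2 and 6 reads in medium, 14, 20 and 12 under TNF-α, 6, 9 and 14 under 5-OH-TMT, and 85, 55 and 61 in the knockdown. Its level was 0.109, 0.0590 and 0.174 FPKM in medium, 0.361, 0.607 and 0.304 under TNF-α, 0.161, 0.240 and 0.368 under 5-OH-TMT, and 2.23, 1.44 and 1.58 in the knockdown. SPRR2D was the only member for which every TNF-α library was above every medium library, and the knockdown was above all 9 others. The fitted log2 difference was 1.29 for TNF-α against medium (SE 0.305, 95% interval 0.62 to 1.95) and 1.84 for the knockdown against TNF-α (SE 0.305, 95% interval 1.17 to 2.51). The SPRR2 genes share part of their sequence. In the GENCODE 29 transcripts, 32.7% of the stretches of 50 bases in SPRR2A and 19.3% of those in SPRR2D also occurred in other SPRR2 genes, and at 100 bases 20.3% and 3.74% did, so the division of some reads among them is uncertain. For SPRR1A and SPRR1B, which share sequence with each other, it was 11.3% and 4.38% at 50 bases and 0 at 100.

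SPRR3, the esophageal family member that lies between SPRR1A and SPRR1B (plus strand, 153001747 to 153003856), had 0 reads in all 12 libraries. The remaining members of the family were at the edge of detection. SPRR2B and SPRR2C had no reads, SPRR2E had at most 6 reads in any library, SPRR2F at most 4, SPRR4 at most 2 and SPRR5 at most 2. SPRR2G had 4, 0 and 8 reads in the knockdown and none in the other 9 libraries. Of the 12 SPRR genes in the table only SPRR1A, SPRR1B, SPRR2A and SPRR2D had a mean of at least 0.1 FPKM over the 12 libraries, the level needed to enter the fit.

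**Figure D1:**
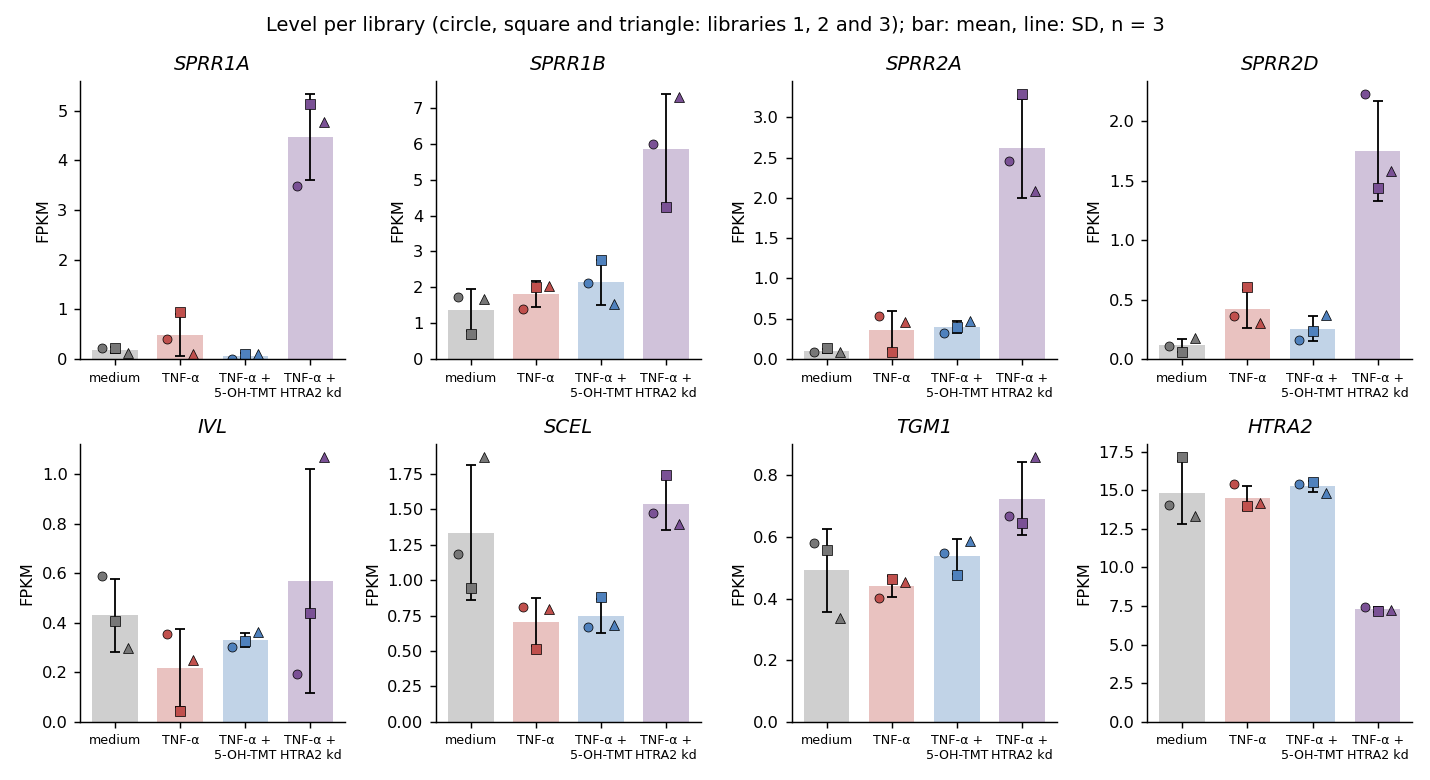
FPKM of 7 members and of HTRA2 in each of the 12 libraries, by group (kd, knockdown). Symbols are libraries 1 to 3, bars are group means and lines are SD (n = 3). For SPRR1A, SPRR1B, SPRR2A, SPRR2D and TGM1 the 3 knockdown libraries sit above the other 9, a pattern whose share over all genes was not counted. Against the TNF-α libraries alone, every knockdown library was higher for 17.5% of all genes tested. Nothing is read from the pattern. IVL spans 0.193 to 1.07 FPKM within the knockdown, and for SCEL the medium and knockdown libraries overlap.

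IVL encodes involucrin, the glutamine-rich scaffold protein that transglutaminases modify first. Its position is chromosome 1, 152908545 to 152911886, plus strand. Its level was 0.590, 0.405 and 0.299 FPKM in medium, 0.355, 0.0447 and 0.249 under TNF-α, 0.304, 0.327 and 0.361 under 5-OH-TMT, and 0.193, 0.438 and 1.07 in the knockdown. No pair of neighbouring groups was apart. The knockdown libraries held 15, 34 and 84 reads and TNF-α library 2 held 3. The knockdown libraries spanned 0.193 to 1.07 FPKM, a wider range than that of the 4 group means, 0.216 to 0.567. The fitted log2 difference of the knockdown against TNF-α was 1.0 (SE 0.496) with a 95% interval from -0.08 to 2.09.

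SCEL encodes sciellin, a LIM-domain precursor of the envelope, and lies on chromosome 13 from 77535674 to 77645263 on the plus strand. Its level was 1.19, 0.949 and 1.87 FPKM in medium, 0.810, 0.511 and 0.797 under TNF-α, 0.669, 0.883 and 0.681 under 5-OH-TMT, and 1.48, 1.74 and 1.40 in the knockdown. Every TNF-α library was below every medium library, and every knockdown library was above every TNF-α library and within the range of medium. The fitted log2 difference was -0.80 for TNF-α against medium (SE 0.233, 95% interval -1.31 to -0.30) and 1.04 for the knockdown against TNF-α (SE 0.233, 95% interval 0.53 to 1.55). Its mean in medium was next below that of the knockdown, as for IVL, whereas each detected SPRR gene had a lower mean in medium than under TNF-α. An antisense gene, SCEL-AS1, overlaps SCEL and had 0 reads in every library, and the library kit does not mark the strand. Of the stretches of 50 bases in SCEL transcripts 1.35% also lie in those of SCEL-AS1, and for that share reads of the pair cannot be told apart.

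TGM1 encodes the membrane-anchored transglutaminase of keratinocytes that cross-links these precursors, and is at 24249114 to 24264432 of chromosome 14, minus strand. Its level was 0.580, 0.559 and 0.336 FPKM in medium, 0.401, 0.464 and 0.452 under TNF-α, 0.548, 0.475 and 0.588 under 5-OH-TMT, and 0.668, 0.646 and 0.859 in the knockdown. The knockdown was above all 9 other libraries, though only from 0.646 against 0.588 FPKM at the nearest. The 5-OH-TMT libraries were all above the TNF-α libraries, and TGM1 was the only member of which this was so. The same held for 16.3% of all genes tested, so nothing is read from it. The fitted log2 difference was 0.61 for the knockdown against TNF-α (SE 0.203, 95% interval 0.16 to 1.05) and 0.24 for 5-OH-TMT against TNF-α (SE 0.203, 95% interval -0.20 to 0.68).

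Between members, the order of levels per length changed with the group. In medium SPRR1B and SCEL led at 1.37 ± 0.576 and 1.34 ± 0.479 FPKM (SD, n = 3), TGM1 and IVL followed at 0.492 and 0.431, and SPRR1A, SPRR2D and SPRR2A stood at 0.186, 0.114 and 0.0999. In the knockdown all 4 detected SPRR genes came before SCEL, TGM1 and IVL, although the SPRR2D and SCEL libraries overlapped. Summed over the SPRR genes, the level was 1.13 to 2.13 FPKM in medium, 2.71 to 3.67 under TNF-α, 2.47 to 3.51 under 5-OH-TMT, and 14.1 to 15.8 in the knockdown. Summed over IVL, SCEL and TGM1 it was 1.91 to 2.51, 1.02 to 1.57, 1.52 to 1.69 and 2.34 to 3.33 FPKM. The SPRR share of the members' summed FPKM was thus 37.0% to 47.4% in medium, 63.4% to 78.2% under TNF-α, 60.2% to 67.6% under 5-OH-TMT, and 82.6% to 85.8% in the knockdown. The knockdown libraries were close in this sum even though they were not in the same order from gene to gene: library 2 was the lowest for SPRR1B and SPRR2D and the highest for SPRR1A and SPRR2A. In bulk RNA fewer cells of a kind and less RNA per cell cannot be told apart.

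The first comparison, TNF-α against medium, asks what the cytokine did to these genes. The 7 measured members had fitted log2 differences from -0.87 for IVL to 1.29 for SPRR2D, with a median of 0.46 beside -0.0020 over all 18079 genes tested. The 4 SPRR genes were higher in the mean with TNF-α, by 0.75 for SPRR1A (SE 0.498), 0.46 for SPRR1B (SE 0.319) and 1.03 for SPRR2A (SE 0.381) beside the value for SPRR2D. IVL, SCEL and TGM1 were lower in the mean, with TGM1 at -0.11 (SE 0.203). In the fit over all genes 1 of the 7 lay under an adjusted p of 0.05, as did 4.1% of all genes in either direction and 3.22% upwards. This count is no test of genes chosen from these values. Every TNF-α library was above every medium library for 1 member, beside 11.1% of all genes, and below for 1, SCEL, beside 8.74%. The count was 0 without TNF-α library 1, medium library 1, 5-OH-TMT library 2 or knockdown library 3, and without medium library 2 or TNF-α library 2 it was made up by another member. The median was 0.0740 without medium library 2, 0.174 without TNF-α library 2 and between 0.377 and 0.665 without any other medium or TNF-α library, SPRR1B being at 0.0740 and SPRR1A at 0.174 in those 2 cases. Since these data led to the choice of the members, nothing is read from this count.

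The second comparison, 5-OH-TMT with TNF-α against TNF-α, asks what the compound changed. Members differed by -1.56 for SPRR1A (SE 0.498, 95% interval -2.64 to -0.47), where TNF-α had 13 reads over its libraries and 5-OH-TMT had 2, a ratio per unit of depth of 0.152 with a 95% exact interval of 0.0166 to 0.670. The libraries of the groups overlapped, 8 of the 13 reads were in TNF-α library 2, and the SPRR1A difference ranged from -2.18 to -0.98 with a library left out and from -2.80 to -0.44 over the other alternatives. SPRR2D had a fitted log2 difference of -0.56 (SE 0.305, 95% interval -1.22 to 0.11) and IVL one of 0.60 (SE 0.496). SPRR1B, SPRR2A and SCEL had fitted log2 differences of 0.20, 0.27 and 0.08, each with an interval across 0. By limma 0 of 7 members lay under an adjusted p of 0.05, beside 0.0387% of all genes (0.0332% upwards and 0.00553% downwards), 1 had an unadjusted p under 0.05, and voom on the recovered reads called 0. Over all 18079 genes 3632 had an unadjusted p under 0.05 and voom called 236, and nothing is read from the members' counts. The intervals were wide: for SPRR1B the 95% interval ran from -0.50 to 0.90, and for SPRR2A from -0.56 to 1.11.

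The third comparison, HTRA2 knockdown against TNF-α alone, both with TNF-α, asks what loss of the protease changed under the cytokine. All 7 measured members had fitted differences above 0, with a median of 1.62 beside -0.0034 over all genes. Every knockdown library was above every TNF-α library for 6 of the 7, IVL being the exception, where 17.5% of all genes were so. In the fit over all genes 5 of the 7 lay under an adjusted p of 0.05, as did 17.4% of all genes in either direction and 9.35% upwards, again no test of genes chosen from these values. These shares stand beside the members' counts, and nothing is read from them. The share of all genes with the knockdown above all 9 other libraries, as for 5 members, was not counted, and nothing is read from that pattern. Since the labels name no control siRNA for the TNF-α libraries, siRNA treatment as such and loss of HTRA2 cannot be told apart. The paper describes its knockdown comparison as against cells given a control siRNA, but no group of these libraries is labelled so. The 3 comparisons share the TNF-α libraries, so a low TNF-α library enters both the first and the third with opposite sign.

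**Figure D2:**
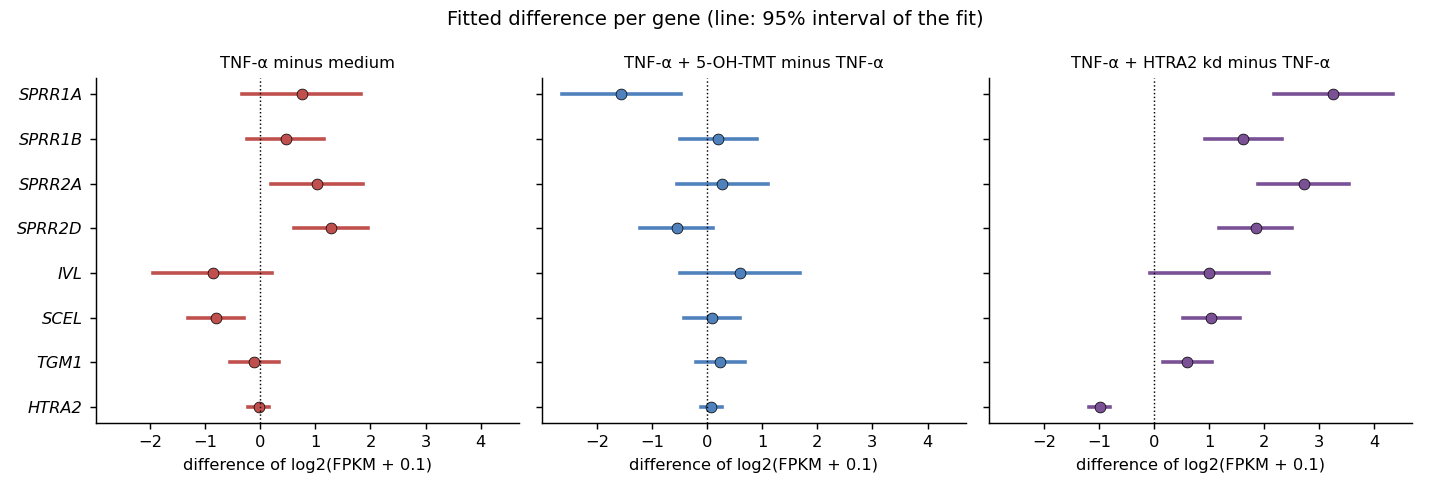
Fitted difference of log2(FPKM + 0.1) for 7 members and HTRA2 in the 3 comparisons, with 95% intervals as lines (kd, knockdown). In the knockdown the SPRR genes lie between 1.62 and 3.25, TGM1 at 0.61, and the IVL interval crosses 0. With TNF-α the SPRR genes lie right of 0 and IVL and SCEL left of it, but the intervals of SPRR1A, SPRR1B, IVL and TGM1 cross 0.

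Most other envelope genes had no reads or fell under 0.1 FPKM. Some others stood above every member in mean FPKM over all libraries. SLPI was at 158 FPKM, DSP at 41.3, CSTA at 39.9, PPL at 36.6 and KRT10 at 27.9, beside 2.79 for SPRR1B. The gene lists used below were chosen with earlier results of these data known, so no excess over all genes is read from their counts. Of 51 other envelope proteins, 23 had 0 reads in every library, among them loricrin (LOR), FLG2 and KRT1, 16 had reads but fell under 0.1 FPKM, and 12 were tested. The late cornified envelope (LCE) family had 18 genes in the complex, of which 14 were at 0 and none was tested. Filaggrin (FLG) stood at 0.0907 ± 0.0409 FPKM in medium, 0.0706 ± 0.0305 under TNF-α, 0.131 ± 0.0450 under 5-OH-TMT and 0.0678 ± 0.0274 in the knockdown (SD, n = 3). In the knockdown 4 of the 12 rose and 2 fell by limma, beside 9.35% and 8.08% of all genes. PI3, the elastase inhibitor elafin that is cross-linked into the envelope, rose from 1.34 ± 0.540 to 10.1 ± 0.939 FPKM, a log2 difference of 2.89 (SE 0.580, adjusted p = 0.00502). That call was lost when 0.01 in place of 0.1 was added to the FPKM. SLPI, a related inhibitor, rose from 107 ± 10.3 to 311 ± 30.8 FPKM (log2 difference 1.53, adjusted p = 6.5e-06). CSTA, the protease inhibitor cystatin A, and DSP, desmoplakin of the desmosome, rose by 0.89 and 0.45 on the log2 scale (adjusted p = 0.00026 and 0.00229). PPL, the scaffold plakin periplakin, fell by 0.51 and the suprabasal keratin KRT10 fell by 0.41 (adjusted p = 0.001 and 0.00155). The median log2 difference of the 12 was 0.25.

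With TNF-α, PPL was the only other envelope protein of the 12 to pass, and it fell by 0.36 (SE 0.078, adjusted p = 0.0206), beside 0.885% of all genes called lower. That call was lost without medium library 1 (-0.33, adjusted p = 0.0838), medium library 2 (-0.33, adjusted p = 0.0734) or TNF-α library 3 (-0.29, adjusted p = 0.0852), and without medium library 3 the count was 2. PI3 stood at 0.323 ± 0.390 FPKM in medium and did not pass (log2 difference 2.20, adjusted p = 0.0586). With 5-OH-TMT limma called 0 of the 12, with 3 at an unadjusted p under 0.05 and 0 by voom. The last 2 counts stand beside 3632 and 236 of all 18079 genes.

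The enzymes that link and process the envelope were mostly present. Of 36, 25 were tested, and in the knockdown 11 rose and 0 fell, beside 9.35% and 8.08% of all genes, with 1 at an unadjusted p under 0.05 in the lower direction. ABCA12, the lipid transporter of lamellar granules, rose from 1.01 ± 0.289 to 3.50 ± 0.394 FPKM (log2 difference 1.73, SE 0.191, adjusted p = 0.000111). TGM5, an epidermal transglutaminase, had 20 to 25 reads per TNF-α library and 66 to 111 per knockdown library (log2 difference 1.55, SE 0.282, adjusted p = 0.00285). The desquamation proteases KLK6 and KLK5 rose by 1.10 and 0.77 (adjusted p = 8.11e-05 and 0.00129), KLK5 from 113 ± 11.1 to 194 ± 31.8 FPKM. KLK8 and CASP14, the caspase of cornification, rose by 0.74 each (adjusted p = 0.0248 and 0.0381). Both calls were lost without TNF-α library 2 (0.62 for each) or without knockdown library 1 (0.73 and 0.62) or 3 (0.74 and 0.78), that of KLK8 also without TNF-α library 1 (0.69), and that of CASP14 also without TNF-α library 3 (0.71).

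Of the other transglutaminases, 2 were tested and neither passed in the knockdown. TGM2, the ubiquitous tissue enzyme, stood at 0.960 ± 0.195 FPKM with TNF-α and 0.936 ± 0.162 in the knockdown (SD, n = 3; log2 difference -0.03, adjusted p = 0.943), and at 0.650 ± 0.0645 in medium. TGM4, the prostate enzyme, stood at 0.178 with TNF-α and 0.0881 FPKM in the knockdown (adjusted p = 0.329). TGM3, TGM6 and TGM7 had 0 reads in every library, so TGM3, a transglutaminase of the upper epidermis, was not detected. With TNF-α against medium 2 of the 25 were called: UGCG, which makes glucosylceramide, rose by 0.58 (SE 0.104, adjusted p = 0.00667), and KLK6 fell by 0.46 (adjusted p = 0.0489). The KLK6 call was lost without any single TNF-α or 5-OH-TMT library, medium library 1 or 2 or knockdown library 1, with the difference between -0.52 and -0.36 and the adjusted p between 0.0594 and 0.187. With 5-OH-TMT limma called 0 of the 25, 7 had an unadjusted p under 0.05, voom called 1, and leaving out knockdown library 2 gave 2. Over all 18079 genes the unadjusted and voom counts were 3632 and 236.

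Among 38 transcription factors and receptors of squamous differentiation 33 were tested. In the knockdown 16 rose and 4 fell, beside 9.35% and 8.08% of all genes, with a median log2 difference of 0.28. ZNF750, a regulator of terminal differentiation, had 14 to 24 reads per TNF-α library and 62 to 137 per knockdown library (log2 difference 1.54, SE 0.335, adjusted p = 0.00802). OVOL1, which restrains proliferation in differentiating keratinocytes, rose from 4.74 ± 0.551 to 9.10 ± 0.905 FPKM (log2 difference 0.93, adjusted p = 0.000131). PRDM1, known as BLIMP1, rose by 0.97 (adjusted p = 0.0289). OVOL2 fell from 1.97 ± 0.267 to 1.08 ± 0.0396 FPKM (log2 difference -0.80, adjusted p = 0.000996), and FOSL1, an AP-1 subunit, fell from 132 ± 26.8 to 78.1 ± 12.3 FPKM (log2 difference -0.75, adjusted p = 0.00873). Of the other AP-1 subunits listed, JUNB rose by 0.41 (adjusted p = 0.00449), and JUN, JUND and FOSL2 did not pass (0.16, 0.27 and 0.09). The PRDM1 call was lost without any single TNF-α or knockdown library, with differences of 0.93 to 1.01 and adjusted p of 0.0562 to 0.0933.

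With TNF-α 5 of these 33 factors rose and 3 fell, beside 3.22% and 0.885% of all genes. FOSL1 rose by 1.08, GRHL3, a grainyhead factor of barrier formation, by 1.06 and the vitamin D receptor VDR by 0.52 (adjusted p = 0.00231, 0.000711 and 0.0223). CEBPA fell by 0.98 and OVOL2 by 0.80 (adjusted p = 0.000411 and 0.0024). The count was 5 in place of 8 without TNF-α library 2, and the VDR call was lost without that library, TNF-α library 1, or medium library 2 or 3, with differences of 0.46 to 0.53. With 5-OH-TMT limma called 0 of 33, 11 had an unadjusted p under 0.05 and voom called 3. Over all 18079 genes the unadjusted and voom counts in this comparison were 3632 and 236. Leaving out knockdown library 2, which is no part of that comparison but enters the shared spread, gave 4, and leaving out medium library 2 gave 1.

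**Figure D3:**
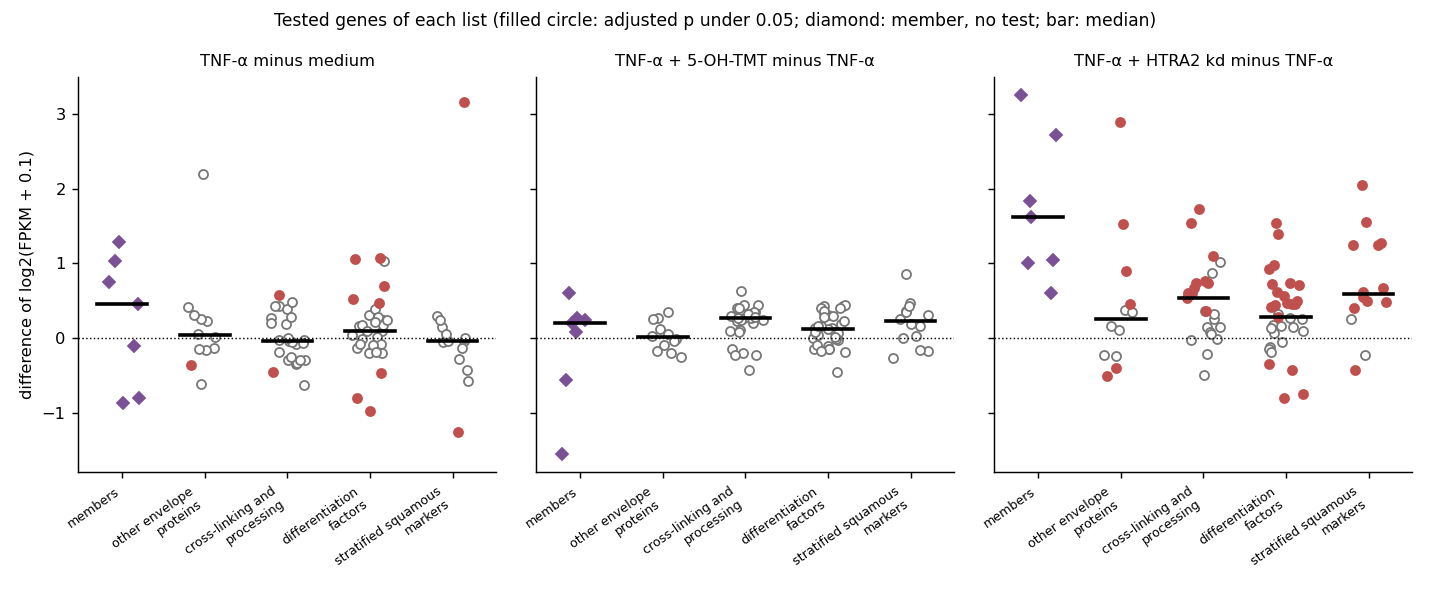
Fitted difference of log2(FPKM + 0.1) for the tested genes of each list in the 3 comparisons (kd, knockdown). Filled circles passed an adjusted p of 0.05, diamonds are the members, which are shown as a description, and black bars are medians. In the knockdown the members' median is 1.62 and those of the 4 other lists plotted lie between 0.25 and 0.59, and in the 5-OH-TMT panel no circle is filled.

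The epidermal differentiation complex was bounded by S100A10 and S100A1, from 151982915 to 153632039 on chromosome 1, and held 90 genes, 6 of them members. Of the other 84, 39 had 0 reads in every library, 27 fell under the filter and 18 were tested. In the knockdown 4 rose and 1 fell, beside 9.35% and 8.08% of all genes. S100A8 and S100A9, the subunits of calprotectin, rose from 0.756 ± 0.296 to 10.3 ± 0.989 FPKM and from 65.9 ± 5.19 to 373 ± 99.8 FPKM, log2 differences of 3.67 and 2.46 (adjusted p = 3.88e-05 and 8.88e-06). S100A7, psoriasin, had 0 to 5 reads per TNF-α library and 10 to 54 per knockdown library, and none in the medium and 5-OH-TMT libraries. PGLYRP4, a peptidoglycan recognition protein, had 0 to 8 and 17 to 40 reads. These last 2 reached the filter of 0.1 FPKM only through the knockdown libraries, so their place among the 4 counts for nothing. The basal-layer gene S100A2 fell by 0.43 (adjusted p = 0.0116). The median log2 difference of the 18 was -0.03, with S100A6 at -0.18 and S100A16 at -0.06, neither of which passed (adjusted p = 0.263 and 0.769).

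The count of 5 genes of the complex became 3 without knockdown library 1. PGLYRP4 no longer passed without TNF-α library 1 or 2 or knockdown library 1 or 3 (differences of 1.23 to 1.65), and S100A2 without TNF-α library 3 (-0.37) or knockdown library 1 (-0.40). With TNF-α against medium S100A9 rose by 1.01 (adjusted p = 0.0043) and S100A4 fell by 0.38 (adjusted p = 0.0413). The S100A4 call was lost without any single TNF-α library, medium library 1 or 2, 5-OH-TMT library 1, or knockdown library 1 or 3, at -0.39 to -0.30 with adjusted p between 0.0576 and 0.145. With 5-OH-TMT limma called 0 of the 18, 3 had an unadjusted p under 0.05, voom called 0, and leaving out knockdown library 2 gave 1. Over all 18079 genes the unadjusted and voom counts were 3632 and 236.

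**Figure D4:**
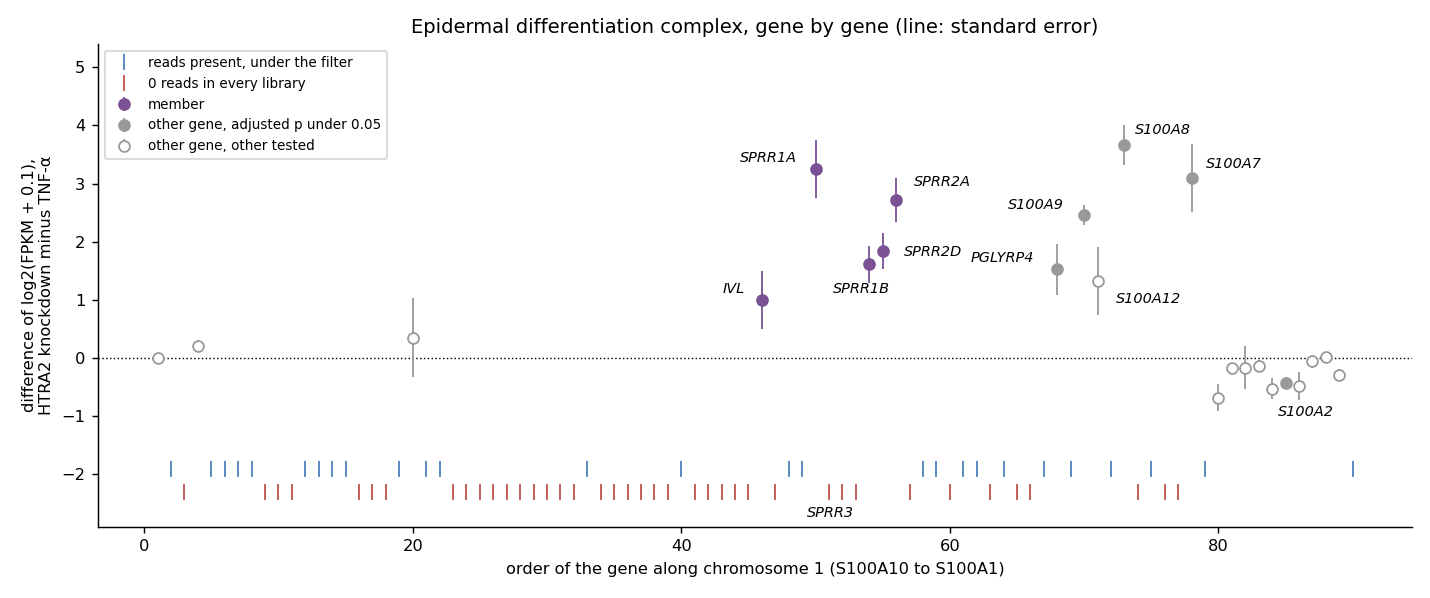
The 90 genes of the epidermal differentiation complex in their order on chromosome 1, with the fitted difference of log2(FPKM + 0.1) in the knockdown against TNF-α and its standard error for those tested. Purple points are members and filled grey points other genes with an adjusted p under 0.05. Ticks at the bottom show genes under the filter and the genes with 0 reads, SPRR3 among them. The members and S100A8, S100A9 and S100A7 stand between 1.0 and 3.67, and the S100 genes at the right end lie near or below 0.

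Markers of stratified squamous epithelium, a list also chosen with earlier results known, were examined beside the members as a description. In the knockdown 11 of 14 tested rose and 1, S100A2, fell, beside 9.35% and 8.08% of all genes, and their summed level was 878 to 973 FPKM against 690 to 758 with TNF-α, 789 to 811 with 5-OH-TMT and 660 to 818 in medium. KRT13, a keratin of mucosal squamous epithelium, rose from 3.68 ± 0.558 to 15.6 ± 2.46 FPKM (log2 difference 2.05, adjusted p = 4.64e-05) and KRT17, a stress keratin, from 127 ± 6.98 to 302 ± 29.6 FPKM (log2 difference 1.24, adjusted p = 2.09e-05). KRT6B was at 1.85 ± 0.450 FPKM in medium, 17.1 ± 0.461 with TNF-α and 40.6 ± 2.39 in the knockdown. KRT14, a basal keratin, did not pass (log2 difference 0.25, adjusted p = 0.161). Calls were lost for KRT5, DSG3, DSC3 and S100A2 without TNF-α library 3, for DSG3 and DSC3 without TNF-α library 2, for KRT6A without TNF-α library 1, for KRT5 and S100A2 without knockdown library 1, for DSC3 without knockdown library 2 and for KRT5 without knockdown library 3. KRT4 had at most 12 reads in any library. With TNF-α 1 of the 14, KRT6B, rose by 3.17 and 1, KRT13, fell by 1.26 (adjusted p = 8.71e-07 and 0.00254), and with 5-OH-TMT limma called 0, with 7 at an unadjusted p under 0.05 and 0 by voom. Over all 18079 genes the unadjusted and voom counts with 5-OH-TMT were 3632 and 236. Of the 5 colonic markers tested 2 rose and 0 fell in the knockdown, CDH1 by 0.40 and KRT19 by 0.77 (adjusted p = 0.00108 and 0.0044), and 0 had an unadjusted p under 0.05 in the lower direction. The colonic list, mostly KRT8 and KRT18, summed to 2118 to 2387 FPKM in the knockdown and 2260 to 2509 with TNF-α, the 10 fibroblast markers to 4.61 to 4.86 against 2.10 to 2.53 FPKM, and the 10 leukocyte markers to 0.457 to 0.958 against 0.229 to 0.377 FPKM. The part of these markers in the members' values was not tested.

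Genes with the most similar profiles were sought for the members with a mean of at least 1 FPKM, SPRR1A, SPRR1B and SCEL, among 11182 other genes of at least that level. Likeness was the root mean square difference over the 12 libraries after each gene's mean log2(FPKM + 0.1) was subtracted, given as a description. SPRR1A, and S100A8 and CMPK2 among the genes like it, reached a mean of 1 FPKM only through the knockdown libraries. Their likeness restates that all were high there. SCEL also reached that mean only with the knockdown libraries, where it was high, so nothing is read from its search. Nearest to SPRR1A were S100A8 (0.98), RSAD2 (0.99) and CMPK2 (1.03), beside a median of 1.93 over all candidates. RSAD2 and CMPK2 are neighbouring interferon-stimulated genes, and RSAD2 was at 1.48 FPKM with TNF-α and 10.2 in the knockdown. Nearest to SPRR1B were MYL9 (0.38), FN1 (0.39) and USP18 (0.39), beside a median of 0.89, with FN1, fibronectin, at 202 FPKM with TNF-α and 522 in the knockdown. Nearest to SCEL were CNTRL (0.20), VAV3 (0.23) and SYNE2 (0.23), beside a median of 0.56. SCEL and VAV3 shared the high medium level, VAV3 being at 2.63 FPKM in medium, 1.26 under TNF-α, 1.48 under 5-OH-TMT, and 2.33 in the knockdown.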

How the data were processed

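Poly(A) RNA of 12 libraries, 3 in each of 4 groups, was made with a kit that does not mark strand. The submitters' processing notes name CASAVA 1.8, HISAT2 2.0.4, HTSeq 0.9.1 and hg38. The authors deposited FPKM values per gene and library, which carry a scaling between libraries (divisor over summed reads 0.969 to 1.05). Multiplying by length and the unit of 1 read gave whole reads for each gene (tolerance 0.01), 31008429 to 37624399 per library. Intervals on reads are exact, take each read as independent and cover counting error only. Of the gene values of 1 to 10 reads, 61.4% to 65.1% per library were even, so reads may not be independent. The intervals may then be too narrow, which was not tested.

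Levels were tested as log2(FPKM + 0.1) with limma 3.58.1 in R 4.3.3 (lmFit and eBayes with a trend, 2-sided, all 4 groups in 1 fit) over 18079 genes with a mean of at least 0.1 FPKM. P-values were adjusted by Benjamini-Hochberg over all of them and called under 0.05. The fold change of low genes is understated on this scale. P-values measure the spread between these libraries, which may be technical. The fit was tested on simulated data with changes set only in genes of many reads. That run says nothing about genes of few reads, such as the SPRR genes. The members and gene lists were chosen with earlier results of these data known. Genes named were the members and HTRA2, per list and comparison up to 6 called genes of largest difference, other SPRR and transglutaminase genes, cell type markers, and the 3 genes most like each member of at least 1 FPKM. FLG, FLG2, LOR, KRT1, S100A6, S100A16 and the AP-1 subunits beside FOSL1 were named after their values were seen. Some genes that the rule would name are not reported here. Alternatives were other pseudocounts, filters and scalings, a fit of 2 groups, a replicate block, voom on the recovered reads and leaving out each library. Sequences came from RefSeq. Figures were drawn with matplotlib 3.10.9. No amino acid sequence was used here.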

Additional observations from a re-analysis of the deposited data

How the results depend on the processing

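SPRR1A had 0 to 8 reads per library outside the knockdown, which limits its values there. HTRA2 kept its direction and call under every alternative, from -1.0 to -0.90 on the log2 scale and from -1.01 to -0.94 with a library left out. Median-of-ratios scaling gave the main values, since the deposited FPKM carry it. Scaling by the plain sum of reads was chosen after seeing the data.

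For TNF-α against medium, the 1 called member became 0 with pseudocount 1, no filter, a mean of at least 1 FPKM, only the 2 groups compared, the replicate block and voom (0 to 1 with a library left out). The 1 other envelope protein became 3 at a mean of at least 1 FPKM, 2 with voom and 0 with only 2 groups (0 to 2). The 2 enzymes became 1 with pseudocount 1, no filter, 2 groups and the replicate block (1 to 3). The 8 factors became 5 with 2 groups (5 to 9). The 2 genes of the complex became 1 with no filter, 2 groups, the replicate block and voom (1 to 3). For 5-OH-TMT against TNF-α, the 0 enzymes became 4 with 2 groups and 1 with voom (0 to 2), the 0 factors 2 at a mean of at least 1 FPKM, 4 with 2 groups and 3 with voom (0 to 4), and the 0 genes of the complex 1 with 2 groups (0 to 1). For the knockdown, the 11 enzymes became 7 with 2 groups (8 to 12), the 5 members 3 at a mean of at least 1 FPKM, where 3 were tested (5 to 6), and the 5 genes of the complex ranged from 3 to 7. The cause of these shifts was not tested.

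Over all genes, 5-OH-TMT had 7 calls, against 127 at a mean of at least 1 FPKM, 911 with 2 groups, 236 with voom, 14 with the plain sum, 3 with pseudocount 1, 1 with the replicate block and 1 to 551 with a library left out, 551 of them without knockdown library 2. TNF-α had 742, against 392 with 2 groups. Of the named genes called, 8 of 13 with TNF-α and 24 of 36 in the knockdown kept their call under every alternative, and 0 reversed. The replicate numbers share only a number: libraries of the same number correlated at -0.21 to 0.15 in their deviations from group means, and the block lowered the calls from 742 to 600 with TNF-α and from 3152 to 2660 in the knockdown.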
